A study of Mus musculus with 1753 samples.

Results

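The genes described here are 9 genes of calcium handling, Atp2a2, Atp2a3, Pln, Casq2, Itpr1, Ryr2, Cacna1c, Cacna1h and Atp2b4, out of 46517 genes in a count table of single cells from mouse hindlimb muscle. They were chosen by their levels in this same table, as genes with more counts in mural cells than in fibroblasts, so those levels are given as a description and without a test. Mural cells, which wrap vessels as smooth muscle cells or pericytes, were the 187 cells of cluster 7, and the other 1566 of the 1753 cells were fibroblasts of clusters 1 to 6 and 8 to 10. The clusters had been made by the authors from these counts. All cells came from adult male mice of 10-20 weeks and had been sorted one by one into plates as CD31-negative cells that carried PDGFRα, PDGFRβ or a fluorescent reporter.

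Mice fell under 5 strain labels, which served as replicates since the labels name no animal. C57BL6 is the inbred strain without a reporter, and it gave 9 mural cells and 364 fibroblasts. Acta2GFP, in which the Acta2 promoter drives GFP, gave 56 mural cells, Cspg4dsRED, in which the red protein marks cells that use Cspg4, gave 74, and PdgfrbGFP, with GFP under Pdgfrb control, gave 37 and 593 fibroblasts. The label PdgfraGFP - PdgfrbGFP pool, called the pool below, stands for material of a pair of reporter lines and gave 11 mural cells and 401 fibroblasts. The methods describe 1 suspension in which soleus muscles of a mouse of each line were joined. A reporter selects cells that use its promoter, and a difference between strains cannot be told apart from a difference in which mural cells were sorted. For Acta2GFP the methods also describe elastase in the dissociation buffer. The mural cells of Acta2GFP and those of Cspg4dsRED each lay on a single plate. Strain thus cannot be told apart from digestion in Acta2GFP, or from plate in either. The labels name the tissue as skeletal muscle, while the extraction text shared by all cells speaks of heart.

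The cells held 46097 to 1055869 counts each (median 258251). Levels below are counts per 500000 counts of a cell, spike-ins left out, averaged over the cells of a strain and then given as mean ± SD over strains. The summed level of 9 mural markers lay between 9315 and 14328 in the mural cells of the 5 strains and between 251 and 675 in their fibroblasts. The 6 fibroblast markers summed to 111.7 to 631 in mural cells and to 7720 to 10614 in fibroblasts. Cluster 7 thus carried the mural markers, with fibroblast markers at a low level.

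Contraction of a vessel begins when calcium rises in the cytoplasm of its mural cells. Calcium enters through voltage-gated channels of the plasma membrane or leaves the sarcoplasmic reticulum through IP3 and ryanodine receptors, and it is cleared by SERCA pumps into that store and by PMCA pumps out of the cell. Phospholamban, the product of Pln, holds SERCA back until it is phosphorylated, and calsequestrin binds calcium inside the store. SERCA2 and phospholamban are best known from heart muscle and from slow skeletal fibres, which are plentiful in the soleus and rarer in the gastrocnemius, so it was asked whether Atp2a2 and Pln followed the mural identity of a cell or the muscle it came from.

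All 9 genes were higher in mural cells. Each was called higher in the fit across all genes, where 6.15% of the 13880 genes tested were called higher in mural cells, and for each of the 9 every mural strain lay above every fibroblast strain in log2 CPM (counts of the summed cells, scaled by library size), as for 6.3% of genes tested. Nothing is read from these counts, since this contrast chose the genes. The median log2 fold change was 5.72 over the 9 genes and −0.46 over all genes tested.

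Atp2a2 (ENSMUSG00000029467, chr5:122453513-122502225 in GRCm38, minus strand) encodes SERCA2, and counts per gene do not separate its isoforms. Its mural level was 318 in Acta2GFP, 181 in C57BL6, 215 in Cspg4dsRED, 523 in PdgfrbGFP and 397 in the pool, which makes 327 ± 139.2 (SD, n = 5 strains). Fibroblasts of the same strains held 25.8, 73.3, 20.8, 45.1 and 39.7. The strain lowest in mural cells, C57BL6, was thus the highest in fibroblasts, and the groups did not overlap. The log2 fold change was 3.11 (SE 0.39), among the smaller of the 9.

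Atp2a3 (chr11:72961169-72993044, plus strand) encodes SERCA3, a pump better known from endothelial and blood cells. It stood at 174, 173, 139.3, 184 and 73.7 in mural cells of Acta2GFP, C57BL6, Cspg4dsRED, PdgfrbGFP and the pool, a mean of 149 ± 45.3 (SD, n = 5), and no fibroblast strain exceeded 4.46. The pool was lowest here, although it was second in Atp2a2. The log2 fold change was 6.07 (SE 0.39).

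Pln (ENSMUSG00000038583, chr10:53337667-53345987, plus strand) showed the largest log2 fold change of the 9, at 9.91 (SE 1.2). Its mural level was 334 in Acta2GFP, 202 in C57BL6, 354 in Cspg4dsRED, 569 in PdgfrbGFP and 329 in the pool, with a mean of 358 ± 132.5 (SD, n = 5). Fibroblasts held 3.43 in Acta2GFP and at most 0.656 in the other strains. The strain with the most Pln in mural cells was also the strain with the most Atp2a2. Exons of Cep85l, on the opposite strand, overlap 5.11% of the exonic bases of Pln, and whether the counting was stranded is not given in the sources used here.

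Casq2 (chr3:102086415-102146514, plus strand), the calsequestrin of heart and smooth muscle, reached 326, 113.04, 381, 505 and 677 in the mural cells of Acta2GFP, C57BL6, Cspg4dsRED, PdgfrbGFP and the pool, a mean of 400.3 ± 210 (SD, n = 5). In fibroblasts it lay between 0 and 9.77, with a count of 0 in all 364 cells of C57BL6, which allows a share of up to 0.824% of cells. C57BL6 was lowest in mural cells too. The log2 fold change was 8.02 (SE 1.36).

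The sequences before the starts of Pln and Casq2 are shown because, of the 9 genes, these had the largest contrast among those of the store. They are RefSeq promoter windows of GRCm38.p6, cut off before the first annotated exon base, at chr10:53337436-53337666 and chr3:102086165-102086414, both plus strand, and capitals mark E-boxes (CANNTG, which reads the same on both strands).
Pln: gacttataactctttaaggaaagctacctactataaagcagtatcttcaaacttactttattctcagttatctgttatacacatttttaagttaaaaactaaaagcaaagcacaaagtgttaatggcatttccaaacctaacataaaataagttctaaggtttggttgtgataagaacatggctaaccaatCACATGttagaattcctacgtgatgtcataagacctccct
Casq2: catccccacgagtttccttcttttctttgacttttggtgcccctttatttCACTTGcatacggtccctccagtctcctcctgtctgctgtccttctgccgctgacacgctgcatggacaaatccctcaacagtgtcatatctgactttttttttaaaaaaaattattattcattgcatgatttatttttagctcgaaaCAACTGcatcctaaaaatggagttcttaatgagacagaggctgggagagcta

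The stretch of Pln holds 1 E-box and that of Casq2 holds 2. Windows from 250 bases before to 50 bases after a start were found for 6 of the 9 genes, 8 windows in all. An E-box was present in 7 of the 8, against 72.3% of all 32851 windows. A CArG box, the motif of serum response factor, was present in none of the 8 and in 1.63% of all, and a MEF2 box in 1, that of Casq2, and in 3.19% of all, both strands searched. A match is a description of letters and not a binding site. Windows for Atp2a2, Itpr1 and Cacna1h were not used here.

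Itpr1 (chr6:108213096-108551109, plus strand) encodes an IP3 receptor. Its mural level was 97.6 in Acta2GFP, 146 in C57BL6, 63.3 in Cspg4dsRED, 77.1 in PdgfrbGFP and 102.6 in the pool (mean 97.3 ± 31.5, SD, n = 5), above fibroblast levels of 10.95 to 38.3. It had the smallest contrast of the 9 genes, a log2 fold change of 2.15 (SE 0.31).

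Ryr2 (chr13:11553102-12106945, minus strand), the ryanodine receptor of the heart, was the most uneven of the 9 across strains. It stood at 16.99 in Acta2GFP, 18.1 in Cspg4dsRED and 36.8 in PdgfrbGFP, but at 0.461 in C57BL6 and 2.12 in the pool, so that the SD (14.7) equalled the mean (14.9) over 5 strains. Fibroblasts did not exceed 0.232 in any strain. The log2 fold change was 5.72 (SE 1.05). C57BL6 and the pool were also the strains whose mural cells carried most Rgs5, a gene high in pericytes, at 2636 and 1971 against 132.6 to 172 in the other 3. Yet Ryr2 stood at 0.381 on a C57BL6 plate with Rgs5 at 4743, and at 0.561 on another with Rgs5 at 2.86. Over 187 mural cells centred on strain, the Pearson r of Ryr2 with Rgs5 was −0.03. A relation between these genes was not tested.

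The channels of the plasma membrane differed from each other by strain. Cacna1c (chr6:118587240-119196418, minus strand), the pore of the L-type channel, stood at 32.1 in Acta2GFP, 136.9 in C57BL6, 19.4 in Cspg4dsRED, 36.2 in PdgfrbGFP and 75.99 in the pool (mean 60.1 ± 47.9, SD, n = 5), with fibroblasts at 0.127 to 5.23. Cacna1h (chr17:25374285-25433783, minus strand), the pore of a T-type channel, stood at 118.9, 12.9, 99.5, 92.8 and 127.7 in the same order (mean 90.3 ± 45.6), with no fibroblast strain above 0.4815. The Cacna1c level of C57BL6 rested on 1 of its 9 cells, at 951. Without the highest cell of each strain, Cacna1c stood at 35.07 in C57BL6 and 35.08 in the pool, and at 12.1 to 28.2 in the other 3, and Cacna1h at 2.81 in C57BL6 and at 79.97 to 85.99 in the other 4. The log2 fold changes were 4.91 (SE 0.74) and 9.65 (SE 1.02).

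Atp2b4 (chr1:133699457-133801041, minus strand) encodes PMCA4, which moves calcium out of the cell. Its mural level was 89.04, 100.7, 58.1, 124.5 and 131.6 in Acta2GFP, C57BL6, Cspg4dsRED, PdgfrbGFP and the pool (mean 100.8 ± 29.5, SD, n = 5), with Cspg4dsRED lowest. Fibroblasts held 9.09 to 32.04, and the log2 fold change was 2.24 (SE 0.35). Atp2a2, Itpr1 and Atp2b4 were thus the 3 of the 9 genes that fibroblasts also held in every strain at more than 9 counts per 500000.

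**Figure D1:**
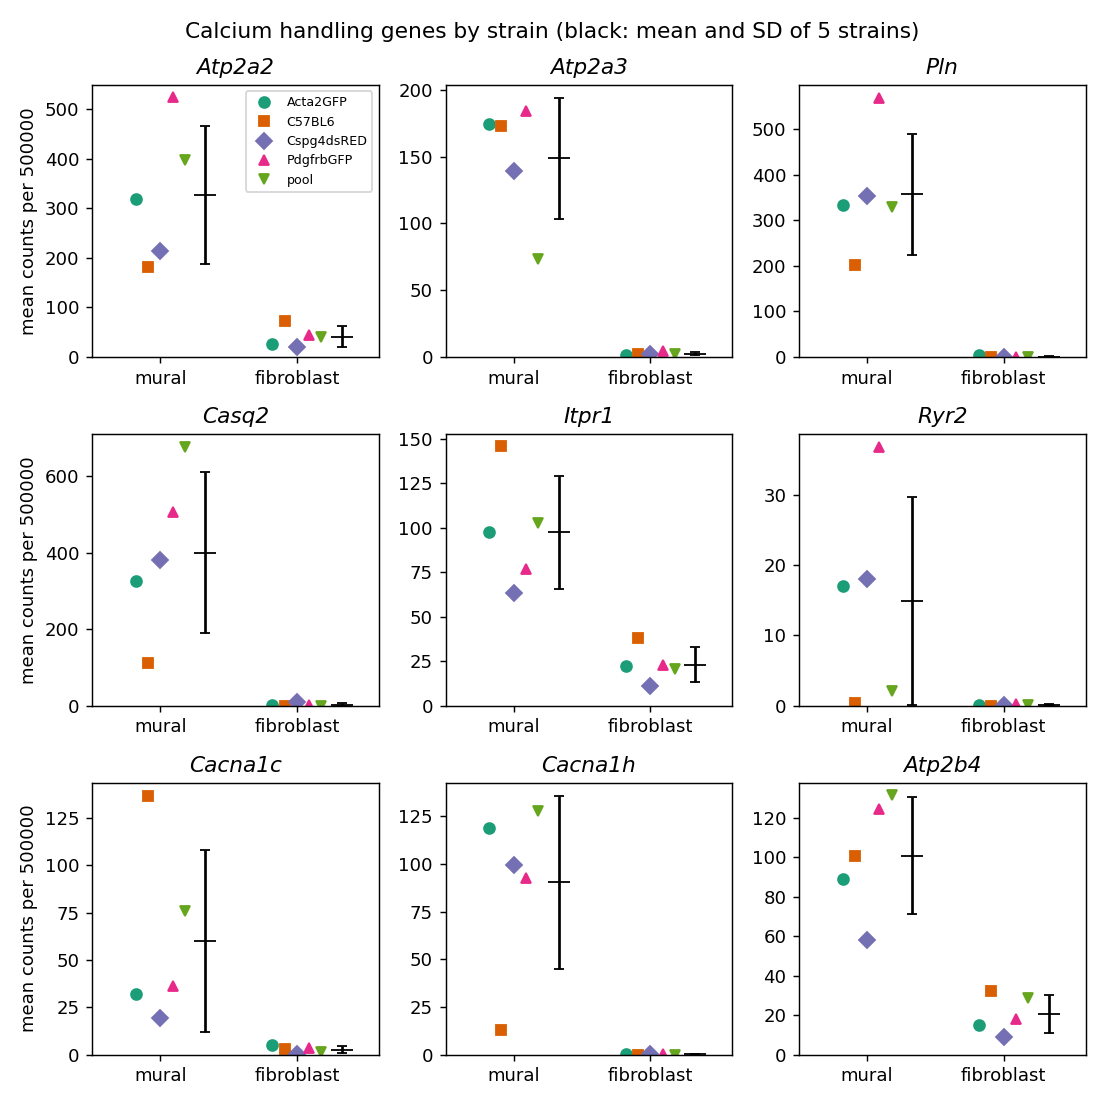
Mean level of each gene in mural cells and in fibroblasts, in counts per 500000 counts of a cell, with 1 point per strain and black bars for the mean and SD of 5 strains. Every mural point lies above every fibroblast point in all 9 panels, the mural points of Ryr2 in C57BL6 and the pool (0.461 and 2.12) lying close to 0.

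Per kilobase of exon, which puts genes of different length on one scale, Casq2 led the mural levels with 146 ± 76.6 (SD, n = 5 strains), followed by Pln with 130 ± 48.04 and Atp2a2 with 53.7 ± 22.9. Casq2 and Pln did not differ beyond their spread, and the ranges of Pln (73.3 to 206) and Atp2a2 (29.7 to 86.1) overlapped. Atp2a3 came next with 28.2 ± 8.57, then Cacna1h with 9.25 ± 4.67, Atp2b4 with 8.23 ± 2.41, Itpr1 with 5.31 ± 1.72 and Cacna1c with 2.84 ± 2.26. Atp2a3 did not overlap Cacna1h in range, while neighbours among the last 4 did. Ryr2 was lowest, with 0.517 ± 0.511 per kilobase.

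Across the 10 cluster labels, cluster 7 held the highest mean level of all 9 genes, which again describes how the genes were chosen. What remained outside cluster 7 differed by gene. Atp2a2 was spread over all fibroblast clusters, from 19.2 ± 19.9 in cluster 10 to 60.2 ± 48.4 in cluster 9 (SD over 3 and 4 strains), and the ranges over strains overlapped for every pair of these clusters. By class it stood at 44.6 ± 15.8 in paramysial cells of cluster 4, 38.7 ± 20.8 in endomysial cells of clusters 1, 3, 5, 6 and 8, and 34.5 ± 32.2 in perimysial cells of clusters 2 and 9. Endomysial cells are those around single fibres and perimysial cells those of the sheath around bundles, beside which the paramysial cells lie.

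Casq2 was near 0 in every fibroblast cluster but cluster 10, where it reached 61.7 ± 75.1 (SD, n = 3 strains). Only 20 of the 62 cells of cluster 10 had a count, and the means by strain were 26.6 in Cspg4dsRED, 148 in PdgfrbGFP with 8 cells, and 10.5 in the pool. Acta2GFP and C57BL6 had no cells there. A single cell of 917 carried most of the PdgfrbGFP value.

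Atp2a3 had its second place in perimysial cluster 2, at 15.9 ± 14.7 (SD, n = 5), against at most 1.85 in any other fibroblast cluster. It was found in 44 of 269 cells of that cluster. Among perimysial cells whose titles name a muscle, it lay almost wholly in gastrocnemius cells, as given below. Other perimysial cells with a count carry no muscle label. Atp2b4 was low in the perimysial classes instead, at 0.647 ± 0.278 in cluster 9 (n = 4) and 6.92 ± 4.53 in cluster 2 (n = 5), and between 18.7 and 38.7 in the other fibroblast clusters. Cacna1c had its highest fibroblast level in cluster 9, at 12.1 ± 9.04 (n = 4). Pln and Cacna1h stayed at or below 2.27 and 0.241 in each fibroblast cluster.

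**Figure D2:**
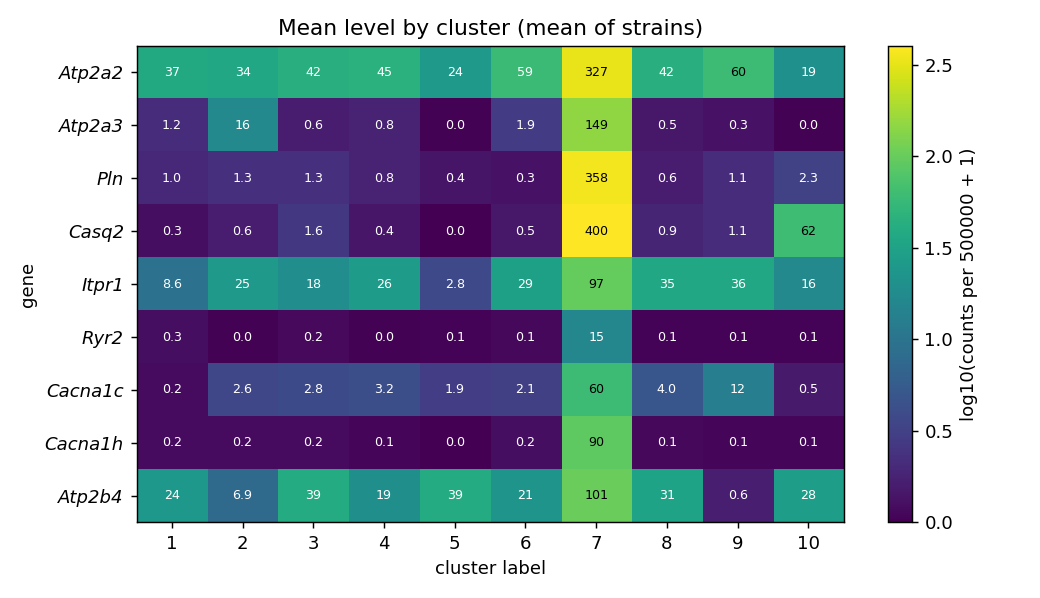
Mean level of each gene by cluster label 1 to 10, averaged over strains with 3 or more cells, with the value in counts per 500000 printed in each cell and colour on a log10 scale. Cluster 7 is the brightest column, Atp2a2, Itpr1 and Atp2b4 are visible in most others, and Casq2 stands out in cluster 10 at 61.7.

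Single cells carried these genes unevenly. A count of Pln was found in 163 of 187 mural cells, of Atp2a2 in 158, of Casq2 in 142, of Cacna1h in 93, of Cacna1c in 73 and of Ryr2 in 46. The shares were 70.05% for Atp2b4, 65.8% for Itpr1 and 56.15% for Atp2a3. Mural cells held fewer counts (median 156960) than endomysial cells (276880), so each cell was thinned to 50000 counts, which left out 0 mural and 2 endomysial cells. The thinned shares were 81.3% ± 12.5 of mural and 37.8% ± 18.2 of endomysial cells for Atp2a2, and 73.8% ± 22.9 and 7.01% ± 9.58 for Pln (SD, n = 5 strains). Before thinning they were 86.2% ± 10.7 and 54.8% ± 22.5 for Atp2a2, and 75.4% ± 24.4 and 18.3% ± 22.1 for Pln.

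Shares of fibroblasts with a count of Pln differed widely by strain. It was found in 62.4% of the fibroblasts of Acta2GFP, at a mean level of 3.43, but in 1 of 364 fibroblasts of C57BL6. Acta2 stood at 335 in the fibroblasts of Acta2GFP and at 43.7 in those of C57BL6, and Rgs5 at 11.9 and 0.908. Kcnj8, a pericyte gene, went the other way, at 1.07 and 2.68. The part of RNA from mural cells in these counts was not tested.

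A mural cell held counts of 6 of the 9 genes in the median, from 0 to all 9, and 130 of 187 mural cells (69.5%) held 5 or more. Among endomysial cells the median was 2 and 38 of 1116 (3.41%) held 5 or more. After thinning, 57.2% of mural cells and 4 endomysial cells (0.359%) did. All 9 genes were found together in 6 mural cells and in 0 endomysial cells, which allows a share of up to 0.269% of such cells.

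The plates showed a split within a single strain label. C57BL6 mural cells lay on a plate with 5 and a plate with 4 of them. On the plate with 5, Pln, Casq2, Cacna1h and Atp2a3 had 0 counts in all cells, where 3 counts would amount to a level of 1.07. For 0 of 5 cells the limit, taken as 3 over the number of cells, is a share of 60%, which is only rough for so few cells. On the plate with 4, Pln was found in 4 of 4 cells at a mean of 455, Casq2 in 3 at 254, Atp2a3 in 3 at 389 and Cacna1h in 2 at 28.98. Atp2a2 was present on both, at 126.3 in 4 of 5 cells and at 248.98 in 4 of 4, and Atp2b4 was at 1.16 on the first and 225 on the second.

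These plates also differed in genes of pericytes and smooth muscle. Kcnj8, a potassium channel of pericytes, was found in 5 of 5 cells of the first at a mean of 968 and in 0 of 4 cells of the second. Rgs5 stood at 4743 and 2.86, Acta2 at 1357 and 3976, and Myh11 at 488 and 3720. The labels do not say whether the plates held cells of the same animals, so plate and kind of mural cell cannot be told apart. The plates were looked at after the levels by strain had been seen.

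The pool showed a like contrast for Pln and not for Casq2. On its plate of gastrocnemius cells, Kcnj8 was found in 4 of 6 mural cells and Pln in 2, with 1 cell holding both, and on its plate of soleus cells in 0 and 4 of 5. Casq2 was found in 6 of 6 gastrocnemius cells at a mean of 945, the highest of the 8 plates. On the plate of Acta2GFP, Pln was found in 55 of 56 mural cells. That all 21 cells with a count of Kcnj8 also held Pln was thus nearly given. The mean Kcnj8 level over that plate was 25.99.

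**Figure D3:**
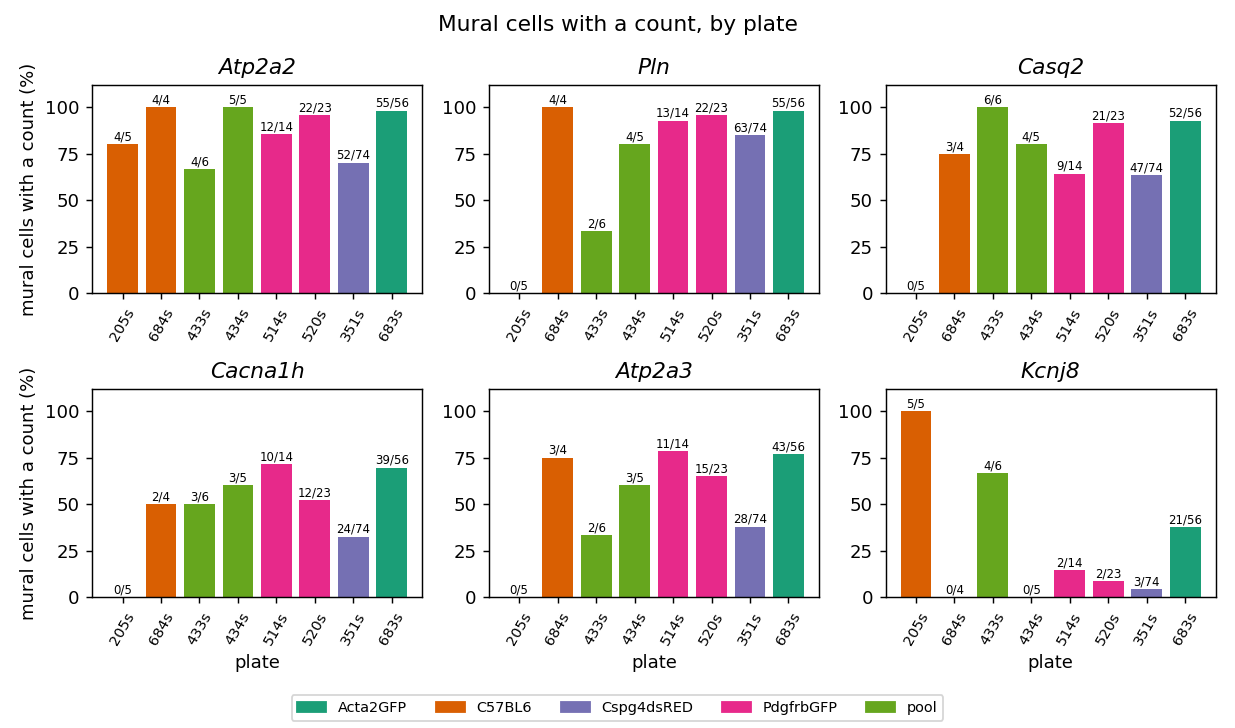
Share of mural cells with a count of each gene (%), by plate, with the cells with a count and all cells above each bar and colours for strain. On the C57BL6 plate with 5 cells Kcnj8 was found in 5 and Pln in none, while on that with 4 cells Pln was found in 4 and Kcnj8 in none.

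Muscle of origin was then compared, since it had no part in choosing the genes. The titles of cells name soleus or gastrocnemius for PdgfrbGFP, with 6 and 17 mural cells on a single plate, and for the pool, with 5 and 6 on separate plates. In the pool, muscle and plate cannot be told apart. Counts were summed per class, strain and muscle, and 12 sums of mural, endomysial and perimysial cells were fitted together with edgeR's quasi-likelihood test.

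Atp2a2 stood at 631 in soleus and 597 in gastrocnemius mural cells of PdgfrbGFP, and at 463 and 342 in those of the pool. The single cells ranged from 413 to 1170 and from 0 to 1314 in PdgfrbGFP, and from 61.8 to 818 and from 0 to 790 in the pool, so the muscles overlapped in both strains. In log2 CPM the sums were 10.16 and 10.31 in PdgfrbGFP and 9.93 and 9.70 in the pool, the strains pointing in opposite directions. The difference, soleus minus gastrocnemius, was 0.04 on the log2 scale (SE 0.45, 95% interval −1.04 to 1.13, Benjamini-Hochberg adjusted p = 1.0 by edgeR). These cells thus allow a difference anywhere within that interval, which is not a limit of detection.

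In endomysial cells, Atp2a2 stood at 47.4 and 47.9 in soleus and gastrocnemius of PdgfrbGFP and at 52.3 and 38.2 in the pool. The log2 difference was 0.02 (SE 0.45, interval −1.07 to 1.11, adjusted p = 1.0 by edgeR). As a description, since level in mural cells chose the genes, mural cells exceeded endomysial cells by 3.62 and 3.53 log2 units in soleus and gastrocnemius of PdgfrbGFP and by 3.50 and 3.54 in those of the pool.

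Pln moved in opposite directions in the 2 strains. In PdgfrbGFP, on a single plate, it stood at 454 in soleus and 702 in gastrocnemius mural cells (5 of 6 and 17 of 17 cells with a count), and in the pool at 599 and 103.1 (4 of 5 and 2 of 6 cells). The log2 difference was −0.69 in PdgfrbGFP alone and 2.99 in the pool alone, values with no test since 1 strain leaves no replicate. Over both it was 1.15 (SE 1.04, 95% interval −1.34 to 3.63, adjusted p = 0.764 by edgeR). The pool's gastrocnemius cells, lowest in Pln, were those with Kcnj8 at 1350, against 0 in its soleus cells. The part of pericytes in this difference was not tested.

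Endomysial cells held Pln at 0.9745 and 0.901 in soleus and gastrocnemius of PdgfrbGFP and at 0.340 and 0.409 in the pool, with a log2 difference of −0.05 (SE 0.91, interval −2.24 to 2.13, adjusted p = 1.0 by edgeR). Mural cells exceeded endomysial cells of the same strain and muscle by 8.14 to 11.06 log2 units. The lowest mural sum of Atp2a2 was 9.70 and the highest endomysial or perimysial sum 8.20, in perimysial soleus cells of PdgfrbGFP, and for Pln the values were 7.50 and 1.91. Nothing about mural identity against muscle is read from these class differences, since the choice of the genes fixed their direction.

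**Figure D4:**
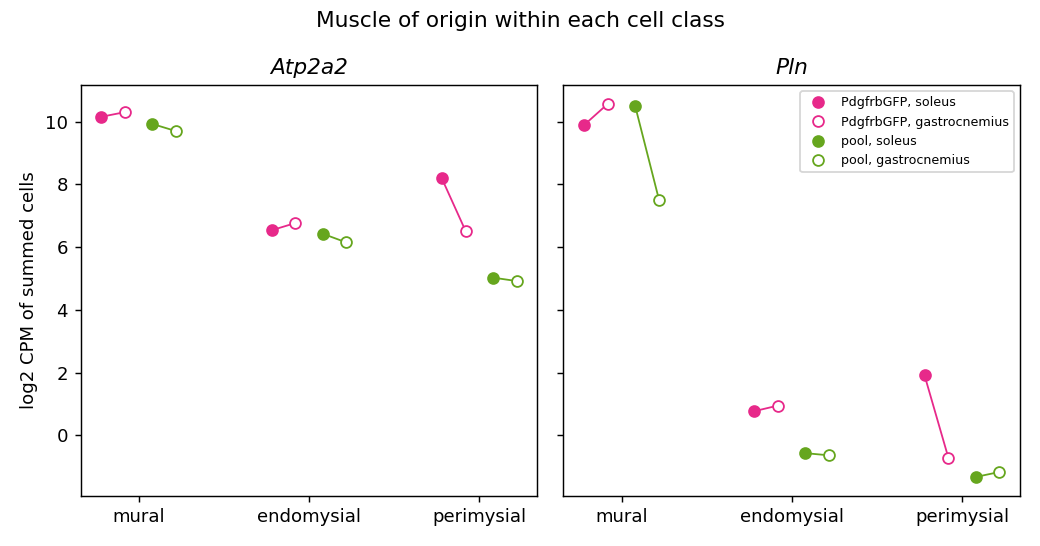
Level of Atp2a2 and Pln in log2 CPM of summed cells, by class, for soleus (filled) and gastrocnemius (open) of PdgfrbGFP and the pool, lines joining the muscles of a strain. Mural sums lie on top in both panels, at 9.70 or more for Atp2a2 and 7.50 or more for Pln, and the mural lines of the 2 strains slope in opposite directions.

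Of the 9 genes, 0 were called between soleus and gastrocnemius in mural cells by edgeR, 0 had an unadjusted p under 0.05, and 0 were called by DESeq2. Over all 14486 genes tested, edgeR called 1 gene, or 0.0069%, which was Thbs2, named here after its value was seen, while 1612 had an unadjusted p under 0.05 and DESeq2 called 1564. In endomysial cells edgeR called 0% of genes, with 0.842% at an unadjusted p under 0.05 and 3 called by DESeq2, and 0 of the 9. The difference between the muscle effects of the 2 classes was called for 0% of genes, with 958 at an unadjusted p under 0.05 and 558 called by DESeq2, and for 0 of the 9.

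Of the other 7, Casq2 stood in PdgfrbGFP at 674 in soleus and 539 in gastrocnemius by the mean of cells, and at 10.07 and 10.20 in log2 CPM of the sums, so the 2 ways of averaging differed in direction. In the pool it stood at 354 and 945. Over both strains the sums gave a log2 difference of −0.80 (SE 0.67, interval −2.40 to 0.80, adjusted p = 0.737 by edgeR). Cacna1c was higher in soleus in both, at 85.8 against 20.1 and 135.9 against 26.03, with a difference of 1.23 (SE 0.96, interval −1.07 to 3.52, adjusted p = 0.7155 by edgeR). Ryr2 rested on 1 or 2 cells with a count in 3 of the 4 sums and on 4 in the other, and its interval ran from −12.7 to 9.21. For Atp2a3, Itpr1, Cacna1h and Atp2b4 the differences lay between −0.02 and 0.48.

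In perimysial cells, Atp2a3 and Atp2b4 were higher in gastrocnemius in both strains, without passing the correction by edgeR. These sums join cluster 2, with Atp2a3 at 15.9 and Atp2b4 at 6.92, and cluster 9, with 0.330 and 0.647. Muscles were not compared within each cluster, and the part of the cluster mix in these differences was not tested. Atp2a3 stood at 0.292 in soleus and 42.2 in gastrocnemius of PdgfrbGFP (1 of 16 and 8 of 19 cells with a count) and at 0 and 44.6 in the pool (0 of 16, which allows a share of up to 18.8%, and 9 of 20). The sums were −0.90 and 6.97 log2 CPM in PdgfrbGFP and −2.89 and 6.58 in the pool. Soleus minus gastrocnemius gave −9.78 (SE 1.51, unadjusted p = 0.00045, adjusted p = 0.555 by edgeR, and 3.85e-07 by DESeq2), a size that depends on the fit because the pool's soleus sum was 0.

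Atp2b4 stood at 1.90 and 14.1 in soleus and gastrocnemius perimysial cells of PdgfrbGFP and at 0.596 and 8.92 in those of the pool. The log2 difference was −4.06 (SE 0.74, interval −5.84 to −2.27, unadjusted p = 0.00121, adjusted p = 0.693 by edgeR, and 3.02e-06 by DESeq2). The share of cells with a count lay between 31.3% and 40% in all 4 groups, and the highest gastrocnemius cells were at 106.7 in PdgfrbGFP and 78.7 in the pool, against 12.5 and 4.95 in soleus. Of all genes, edgeR called 0% between muscles in perimysial cells, with 782 at an unadjusted p under 0.05 and 400 called by DESeq2, and of the 9 genes these were the 2 at an unadjusted p under 0.05. This comparison was made after the levels had been seen, and the other 7 genes had adjusted p-values of 0.894 or more by edgeR.

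RNA of muscle fibres was found in mural cells and in fibroblasts. The 7 slow fibre genes summed to 0.723 to 11.2 in the mural cells of the 5 strains and to 2.67 to 12.7 in fibroblasts, the 9 fast fibre genes to 3.15 to 156 and 29.2 to 50.6, and 8 genes of any fibre to 53.4 to 161 and 77.8 to 127.2. Acta1, actin of skeletal fibres, stood at 34.7 ± 26.1 in mural cells and 56.8 ± 19.2 in fibroblasts (SD, n = 5), and Tnnt1, a troponin of slow fibres, at 3.90 ± 4.36 and 2.39 ± 1.67. Between 2 and 4 of the 7 slow fibre genes had no count in the mural cells of a strain. Myl2 and Myl3, the other slow fibre genes of highest level, stood at 1.07 ± 2.28 and 0.124 ± 0.241 in mural cells and at 1.40 ± 1.6 and 0.756 ± 0.838 in fibroblasts.

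Of the fast fibre genes, Tnnt3 stood at 9.52 ± 14.4 in mural cells and 8.57 ± 2.35 in fibroblasts, Actn3 at 3.58 ± 5.00 and 7.86 ± 2.32, and Tnni2 at 0.916 ± 1.01 and 6.29 ± 2.09. Ckm stood at 12.9 ± 16.9 and 15.8 ± 8.37, and Eno3, also used outside muscle, at 34.4 ± 22.6 and 11.2 ± 5.98. By muscle, the slow fibre genes summed to 31.7 in soleus and 9.83 in gastrocnemius mural cells of PdgfrbGFP and to 0.342 and 1.04 in those of the pool. The fast fibre genes summed to 62.1 and 16.3 in PdgfrbGFP and to 4.89 and 1.70 in the pool, and the genes of any fibre to 272 and 202.8 and to 43.1 and 91.4. In mural cells the highest fast fibre sum of a strain, 156, was that of C57BL6, with Atp2a2 at 181. The highest slow fibre sum, 11.2, was that of Cspg4dsRED, with Atp2a2 at 215. For genes of any fibre it was 161 in PdgfrbGFP, with Atp2a2 at 523. A relation between these sums and Atp2a2 was not tested.

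Without the 25% of cells richest in fibre RNA, the log2 fold changes of Atp2a2 and Pln between mural cells and fibroblasts were 3.14 and 9.66, beside 3.11 and 9.91 with all cells. The difference between soleus and gastrocnemius mural cells went from 0.04 to 0.12 for Atp2a2, from 1.15 to 1.95 for Pln, from 0.48 to 1.18 for Cacna1h and from 0.45 to 0.91 for Itpr1, and none of the 9 genes was called.

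Of the skeletal forms of the same proteins, Atp2a1, Ryr1 and Sln were scarce in mural cells, and Casq1 less so. Atp2a1, the pump of fast fibres, was found in 10 of 187 mural cells and stood at 3.98 ± 8.25 in mural cells and 6.01 ± 3.45 in fibroblasts. Ryr1 was found in 6 mural cells and Sln, which encodes sarcolipin, in 6, at 0.0369 ± 0.0825. Casq1 was found in 32 mural cells, at 13.02 ± 11.5 against 1.72 ± 2.05 in fibroblasts.

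Markers of other cell types differed by strain, beside the fibroblast and fibre genes found in all 5. The 5 endothelial markers summed to 4.12 to 14.99 in mural cells of 4 strains and to 110 in the pool, at 199 in its gastrocnemius cells, where Pln was lowest. The 4 immune markers summed to 325 in C57BL6 and to at most 7.51 in the others, and the 4 muscle stem cell markers to 36.4 in Acta2GFP and to 0 in the others. The 4 glial markers stayed at 1.05 to 7.47. Their part in the levels above was not tested.

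Other genes of calcium handling were taken as 5 lists of 63 genes, 62 of them in the table and 49 with enough counts to be fitted. Relative to fibroblasts, 14 were called higher and 8 lower in mural cells. Of all 13880 genes tested, 854 were called higher and 1286 lower, together 15.4%. As the clusters were made from these counts, the calls describe the clusters. The median log2 fold change of the 49 was 0.16, against −0.46 over all genes tested. For muscle of origin in mural cells, 0 of the 48 that could be fitted were called by edgeR. Of the 48, 4 had an unadjusted p under 0.05 by edgeR (3 store genes and 1 sensor gene), beside 11.1% of all 14486 genes tested. Nothing is read from this count.

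Among store genes, 2 of 11 were higher and 3 lower. Hrc, a calcium-binding protein of the reticulum that also binds its pump, stood at 60.3 ± 40.6 in mural cells and 0.136 ± 0.167 in fibroblasts (log2 fold change 9.49, SE 1.28), and Jph2, which ties the reticulum to the plasma membrane, at 27.2 ± 15.2 and 0.403 ± 0.384 (6.36, SE 0.90). Among release genes, 1 of 6 was higher and 3 lower. The higher one was Mrvi1, an IP3 receptor partner through which cGMP kinase acts, at 202 ± 72.4 and 1.24 ± 0.859 (7.94, SE 0.52).

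The 3 lower release genes were the other IP3 receptors and a ryanodine receptor partner. Itpr2 stood at 0.882 ± 0.781 in mural cells and 22.5 ± 5.77 in fibroblasts, Itpr3 at 0.132 ± 0.130 and 4.97 ± 2.10, and Fkbp1b at 0.191 ± 0.214 and 6.51 ± 2.15 (log2 fold changes −5.13, −4.96 and −6.12). The call of Itpr3 was lost with 1 strain left out in 3 of 5 cases. Each lay below its fibroblast level in all 5 strains, while Itpr1 lay above it.

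Of the entry genes, 5 of 17 were higher and 1 lower. Trpc6, a receptor-operated channel, stood at 18.5 ± 10.2 against 0.0380 ± 0.0398 (9.37, SE 1.49), and Cacnb2, the auxiliary subunit that pairs with Cacna1c, at 28.4 ± 30.2 against 1.25 ± 1.15 (4.41, SE 1.01). Orai2, a store-operated channel, was lower, at 0.271 ± 0.287 against 7.27 ± 4.73 (−5.30, SE 1.27). The calls of Cacnb2 and Orai2 were each lost with 1 strain left out in 4 of 5 cases.

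Among extrusion genes 1 of 5 was higher and 0 lower, and among sensors 5 of 10 were higher and 1 lower. Mylk, the myosin kinase that calcium-bound calmodulin switches on, reached 1578 ± 416 in mural cells and 41.3 ± 29.1 in fibroblasts (5.71, SE 0.45), and Prkg1, the kinase that relaxes vessels in response to nitric oxide, 44.3 ± 17.7 and 1.37 ± 1.26 (5.6, SE 0.72). Camk2b was lower, at 0.123 ± 0.108 against 1.35 ± 0.942 (−3.40, SE 0.98), a call lost under several alternatives.

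**Figure D5:**
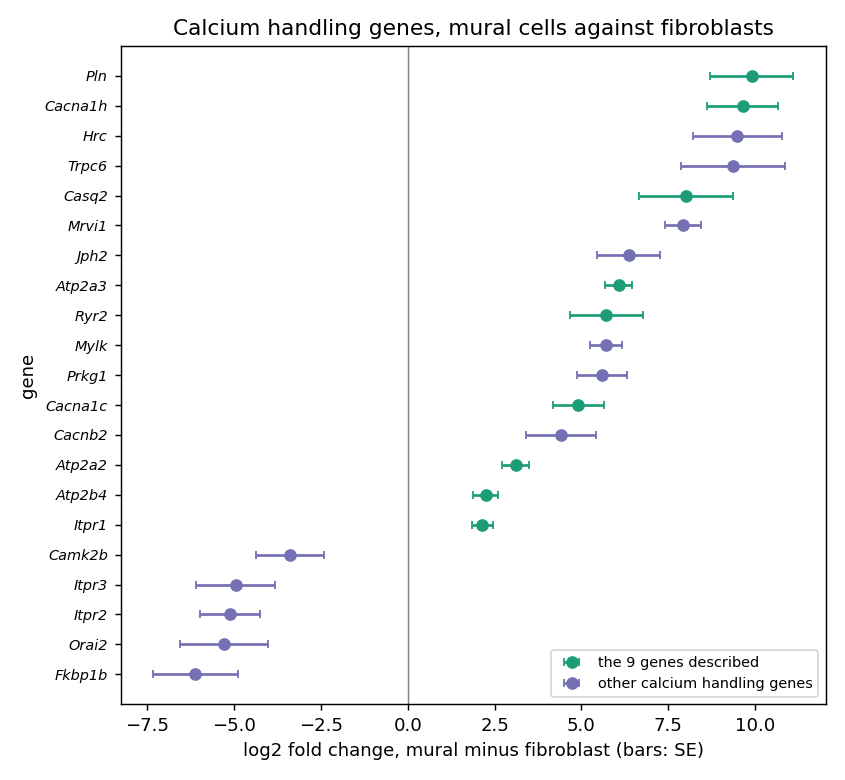
Log2 fold change between mural cells and fibroblasts with its SE, for the 9 genes (green) and the 12 other calcium handling genes of largest change (purple), from a fit of 5 strains. Pln and Cacna1h lead with 9.91 and 9.65, and Fkbp1b, Orai2, Itpr2, Itpr3 and Camk2b lie on the fibroblast side.

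The genes most like Pln in pattern included the smooth muscle genes Mylk and Myh11. Over 32 means of a cluster in a strain with 10 or more cells, and among 4690 genes with 20 or more counts per 500000 in mural cells, Pln followed Kcnmb1 (Pearson r = 0.991), Myocd (0.991), Olfr558 (0.990), Dgkg (0.988) and Olfr78 (0.988). Within the 187 mural cells, centred on strain, the first were Mylk (0.549), Myh11 (0.463), Dstn (0.462), Wfdc1 (0.438) and Lbh (0.428). Pln was chosen for its level in mural cells and stayed low in every fibroblast cluster. A high r over the 32 means was thus largely set in advance for any gene confined to mural cells. The points also share libraries, clusters and depth, and the values are a description.

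Atp2a2 had looser company. Over the 32 means its closest genes were Ppp1cb (0.876), Uba2 (0.869), Epas1 (0.845), Nab1 (0.841) and Nkx6-2 (0.825), of which Ppp1cb and Nkx6-2 share 17.5% and 12.9% of their exonic bases with other genes and are uncertain. Over mural cells they were Csrp2 (0.387), Gucy1a1 (0.357), Olfr558 (0.338), Olfr78 (0.338) and mt-Nd4 (0.336).

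Among themselves the 9 genes were weakly related from cell to cell. The 36 pairs had a median r of 0.11 over 187 mural cells centred on strain, from −0.14 to 0.29, and the highest was shared by Atp2a2 with Casq2 and Pln with Cacna1h. Pln had r = 0.46 with Myh11, 0.36 with Acta2, −0.39 with the pericyte gene Abcc9 and −0.06 with depth. By strain, Pln with Abcc9 had r = −0.43 in Acta2GFP, 0.02 in Cspg4dsRED and −0.06 in PdgfrbGFP. With Myh11 the values were 0.67, 0.20 and 0.51 in the same order. In Acta2GFP alone, with 56 cells, Atp2a2 and Pln had r = 0.56, against 0.02 in 74 cells of Cspg4dsRED and 0.44 in 37 cells of PdgfrbGFP. Counts of single cells are sparse, and the weak values are no finding.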

How the data were processed

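Raw counts of reads were deposited for each gene in each cell. For them the authors mapped Smart-seq2 reads, which carry no molecular identifiers, to GRCm38 with TopHat2 and counted them with featureCounts. The release of the annotation is not given in the sources used here. Of 1754 columns, 1753 matched a labelled cell and 1 was not used. Spike-ins (1.31% of counts) were left out. Of the identifiers, 46005 matched GENCODE M21 and 512 did not. The 9 genes and all lists were chosen with earlier results of these data known.

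Counts were summed over the cells of a class within a strain (3 or more cells), and within a muscle where named, and tested with edgeR 4.0.16 in R 4.3.3 (TMM, filterByExpr by group, quasi-likelihood test, strain as a block, Benjamini-Hochberg adjusted p under 0.05). The SE is the log2 fold change over the root of F. filterByExpr was set by group after a fit with the filter set from the design had been seen, which is given as an alternative. The scripts were tested on simulated data. DESeq2 1.42.0 was an alternative. As strain is a block, p-values and intervals measure how much a class or muscle difference varies between strain labels, which may be technical. In the muscle fit this spread is shared over mural, endomysial and perimysial sums of PdgfrbGFP and the pool. Limits from 3 counts cover counting error only. Limits on shares are 3 over the number of cells, which is rough for few cells.

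The other genes named were, by rule, the 12 of the other calcium lists with the largest log2 fold change among those called with the same direction in every strain, the top 3 of each fibre list by level, and the 5 genes most like Atp2a2 and Pln. Exonic overlap of 10% or more was named as uncertain. The block pairs classes or muscles of a strain label, which stands for shared mice where the label covers them. Doublets were treated by the authors' sort gates and limit on genes, and no caller was run.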

Additional observations from a re-analysis of the deposited data

Results flagged for a closer look

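Of 18 groups of 5 strain levels examined, the 9 genes in mural cells and in fibroblasts, 1 held a strain far from the rest. Pln in fibroblasts stood at 3.43 counts per 500000 in Acta2GFP and between 0.00415 and 0.656 in the other 4 strains, a gap of 0.81 of the whole range where the limit for 5 values is 0.71. Chance marks about 1 in 20 such groups. Counts of Pln were found in 62.4% of the fibroblasts of Acta2GFP. On the same plate lay 56 mural cells with a mean Pln level of 334, and Acta2, Rgs5 and Kcnj8 stood at 335, 11.9 and 1.07 in its fibroblasts. Their part in the Pln level, and that of the elastase used for this strain, was not tested.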

How the results depend on the processing

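In mural cells, the number of genes called between muscles was 1, and 1564 with DESeq2, 0 with RLE size factors, 0 with mural and endomysial sums only, and 18 with no replicate block. In endomysial cells it was 0, and 3 with DESeq2 and 1 with no filter on low counts. The difference of the muscle effects was called for 0 genes, and for 558 with DESeq2. In perimysial cells, compared after seeing the data, 0 were called, and 400 with DESeq2, Atp2a3 and Atp2b4 among them, and 2 with no replicate block. There Atp2a3 ran from −14.1 to −8.22 and Atp2b4 from −4.32 to −3.80 with 1 strain left out. None of the 9 genes was called between muscles in mural cells by edgeR under any alternative run. The cause of these shifts was not tested.

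The muscle differences of Atp2a2 and Pln were near 0 or rested on 1 strain. With 1 strain left out, Atp2a2 in mural cells ran from −0.15 to 0.24 and in endomysial cells from −0.24 to 0.28, and Pln from −0.69 (without the pool, within a plate) to 2.99 (without PdgfrbGFP) and from −0.19 to 0.08. Atp2a2 was −0.023 in mural cells with mural and endomysial sums only. In endomysial cells it was −0.011 with DESeq2 and with RLE size factors, −0.00025 with no filter and −0.0095 with no replicate block. With no replicate block, Pln in mural cells was 0.48 and Atp2a2 0.016, and the block changed no call of the 9 genes. Other signs that changed, with 1 strain left out, were those of Atp2a3 (−0.43 to 0.82), Itpr1 (−0.54 to 1.44), Ryr2 (−6.53 to 3.13), Cacna1h (−0.16 to 1.11) and Atp2b4 (−0.32 to 0.29). Atp2a3 was −0.037 without the cells richest in fibre RNA, and Atp2b4 0.0022 with DESeq2 and 0.0023 with RLE.

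Between mural cells and fibroblasts, 2140 genes were called, 4336 with DESeq2, and from 1230 (without PdgfrbGFP) to 2257 with a strain left out. With the filter set from the design, chosen after seeing the data, it was 2330. For the 9 genes nothing is read from this contrast, which chose them, and Atp2b4 lost its call with plate as the unit (2.47). Of 164 values for the 12 other calcium genes, 21 lost the call, all in Orai2, Itpr3, Cacnb2 and Camk2b, and none changed direction. Thinning moved the share of cells with a count by more than 1 SD for Itpr1 and Ryr2 in mural cells, to 54.8% and 17.04%. The muscle comparison is limited by few mural cells, 5 or 6 in 3 of its 4 sums, by 2 strain labels as replicates and by muscle lying on separate plates in the pool.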
